A study of Homo sapiens with 22 samples.

Results

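The collagen genes are the protein-coding genes whose symbols have the form COL, a number, A and a number. Of 58278 gene entries in the deposited counts, 43 are described here, and 1 further gene that fits the pattern is not analysed here. They were followed as large secretory cargo in LN308 cells, an established glial cell line that the labels describe as derived from an astrocytoma. RNA levels (RNA-Seq of total RNA) and ribosome-protected fragments of 27 to 33 nt (Ribo-Seq, which samples mRNAs under translation, after 5 min of cycloheximide at 0.1 mg/ml) were sequenced in 11 libraries each. Per assay there were 3 untreated libraries (0 h), 3 libraries after 2 h and 3 after 6 h of tunicamycin at 2.5 µg/ml, and 1 library after 2 h and 1 after 6 h of thapsigargin at 200 nM. Tunicamycin blocks N-linked glycosylation in the endoplasmic reticulum (ER), and thapsigargin blocks the SERCA pump that fills the ER with calcium. The protocol names DMSO as the control, the 0 h libraries are labelled untreated, and none of the 22 libraries is labelled as a vehicle control of 2 h or 6 h. Drug, vehicle and time in culture can therefore not be told apart in comparisons with untreated cells. Whether replicates are separate cultures is not stated in the labels, and p-values then describe only how much these libraries vary, which may be technical.

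Collagens are built in the ER. Prolyl and lysyl hydroxylases modify the growing chains, disulfide bonds and N-glycans are added to the propeptides of many of them, and chains of matching types join into a rope-like helix that the chaperone HSP47 holds until export. The folded molecule is too long for a usual COPII vesicle, and cargo receptors of the TANGO1 family together with the coat proteins SEC23 and SEC24 make room for it. In glial tumors, collagens are known as part of the matrix around vessels and invading cells.

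Type IV collagens, which form the network of basement membranes, lie in the genome as head-to-head pairs whose starts face each other. The stretches between their starts are shown because the members of a pair are set side by side in the results. They are RefSeq sequence of GRCh38.p14, plus strand, with capitals for CCAAT boxes (CCAAT) and GC boxes (GGGCGG) on either strand. COL4A1 and COL4A2 are separated by chr13:110307158-110307283, COL4A4 and COL4A3 by chr2:227164489-227164623, and the third stretch is the 250 bases before COL4A5, chrX:108439588-108439837, of 379 that separate it from COL4A6.
COL4A1-COL4A2: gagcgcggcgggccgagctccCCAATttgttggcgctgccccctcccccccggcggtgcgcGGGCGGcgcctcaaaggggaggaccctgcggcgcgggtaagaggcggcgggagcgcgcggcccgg
COL4A4-COL4A3: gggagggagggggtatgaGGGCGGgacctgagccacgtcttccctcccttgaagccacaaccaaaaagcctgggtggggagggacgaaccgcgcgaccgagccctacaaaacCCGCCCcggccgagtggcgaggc
COL4A6-COL4A5: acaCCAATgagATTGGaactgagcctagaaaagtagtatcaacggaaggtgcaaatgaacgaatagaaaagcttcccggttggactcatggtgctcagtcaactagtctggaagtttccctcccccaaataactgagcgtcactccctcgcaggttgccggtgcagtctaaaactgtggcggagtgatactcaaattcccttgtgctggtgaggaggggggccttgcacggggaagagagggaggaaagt
The stretch between COL4A1 and COL4A2 held 1 CCAAT box and 1 GC box in 126 bases, 80.2% of them G or C. That between COL4A4 and COL4A3 held 2 GC boxes, and the bases before COL4A5 held 2 CCAAT boxes.

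Promoter windows, from 250 bases before to 50 after a RefSeq start, were found for 32 of the 43 genes (44 windows). COL1A1, COL1A2, COL2A1, COL3A1, COL5A2, COL6A5, COL8A1, COL9A3, COL14A1, COL20A1 and COL22A1 had no entry. Both strands were searched for elements known from ER stress promoters. The ER stress response element (CCAAT and CCACG with 9 bases between them) was in none of the 44 windows and in 0.0769% of all 35116 windows of that length. ERSE-II (ATTGG and CCACG with 1 base between them) was in none and in 0.0541% of all, and the UPR element TGACGTGG was in none and in 0.729% of all. The C/EBP-ATF element TGATGNAA was in 1 window, that of COL21A1, and in 3.62% of all. GC boxes were in 54.5% of collagen windows and 44.95% of all, CCAAT boxes in 31.8% and 34.6%, and TATAAA in 18.2% and 11.5%. The CCAAT box is also the left end of the ER stress response element, and ERSE-II begins with its reverse complement.

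RNA-Seq libraries held 101371822 to 166586145 counts and Ribo-Seq libraries 4387173 to 29183769. Levels are given as counts-per-million (CPM), with library sizes adjusted by edgeR's trimmed mean method (TMM). A value of 3 counts, the limit that a count of 0 allows for counting error only, corresponded to 0.0149 to 0.0300 CPM in RNA-Seq and 0.103 to 0.721 CPM in Ribo-Seq. Untreated replicate 1 stood apart in both assays, with 53489 genes detected in RNA-Seq where the other 10 libraries had 38264 to 40331. The replicate 1 libraries of tunicamycin and the thapsigargin libraries also lay together, at 61.1 to 116 on the second principal component of RNA-Seq against 4.64 or below elsewhere. The 12 glial markers summed to 1515 to 4405 CPM of RNA, and 2 of them were under 1 CPM in all RNA-Seq libraries. VIM was at 451 to 1664 CPM and S100B at 43.5 to 311. GFAP was at 0.678 to 3.38, AQP4 at 0.397 or below and ALDH1L1 at 1.16 or below, so these markers of mature astrocytes were nearly absent. The 10 fibroblast and mesenchymal markers summed to 2944 to 6649 CPM, mostly FN1 (2838 to 6563), whereas 6 endothelial markers summed to 1.58 to 6.55, 6 blood markers to 1.61 to 3.83 and 6 epithelial markers to 4.39 to 10.3. The part of these libraries' differences in the collagen values was not tested, and results are given with and without replicate 1 where that changes them.

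The collagen genes as a group held 0.485, 0.488 and 0.496% of RNA-Seq counts in untreated cells. The share was 0.394, 0.477 and 0.471% after 2 h of tunicamycin and 0.352, 0.410 and 0.391% after 6 h, in replicates 1, 2 and 3. All 3 libraries of 6 h lay below all untreated ones, and thapsigargin was at 0.414% after 2 h and 0.392% after 6 h. These shares are of library totals without TMM scaling, unlike the CPM. Untreated replicate 1 had a TMM factor of 1.46, and no other RNA-Seq library exceeded 1.06. Scaling thus lowers the collagen level of that library most. Shares on the TMM scale were not computed, so the fall at 6 h holds for unscaled counts only. Of footprints the collagen genes held 0.350, 0.330 and 0.410% in untreated replicates 1, 2 and 3. They held 0.202, 0.346 and 0.566% after 2 h, 0.198, 0.355 and 0.376% after 6 h, and 0.243 and 0.242% in thapsigargin. The groups overlapped there, and the 4 lowest footprint shares were those of tunicamycin replicate 1 and thapsigargin. COL11A1, a fibrillar chain that nucleates thin fibrils (chromosome 1, 102876473 to 103108522, GRCh38.p14), took more collagen counts than any other member in all 22 libraries, 18.6 to 28.9% in RNA-Seq and 19.8 to 34.3% in Ribo-Seq. In bulk samples such as these, fewer cells of a type and less RNA per cell cannot be told apart. Transcript lengths were not used here, so CPM are compared between samples and not between genes.

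All 43 genes passed the filter on low counts in RNA-Seq and 35 in Ribo-Seq. At least 10 counts were found for 38 to 43 of them per RNA-Seq library, and all 43 had them only in untreated replicate 1, whose library passed COL6A5 (99 counts, 0 or 1 elsewhere) and COL26A1 (115 counts, 1 to 4 elsewhere) through the filter. Of the 43, 21 had a mean of at least 5 CPM over the RNA-Seq libraries and also passed in Ribo-Seq, and these are described singly. The other 22 had 8.58 CPM of RNA or less in every library. Among them were the main chains of interstitial matrix, COL1A1 (1.02 to 3.88 CPM), COL1A2 (0.349 to 1.91) and COL3A1 (0.334 to 1.64). The cartilage collagen gene COL2A1 was at 0.429 to 3.67 CPM. Of the other 22, 13 were highest in untreated replicate 1. That library also detected the most genes, and the share over all genes was not computed, so this count does not set collagen genes apart.

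**Figure D1:**
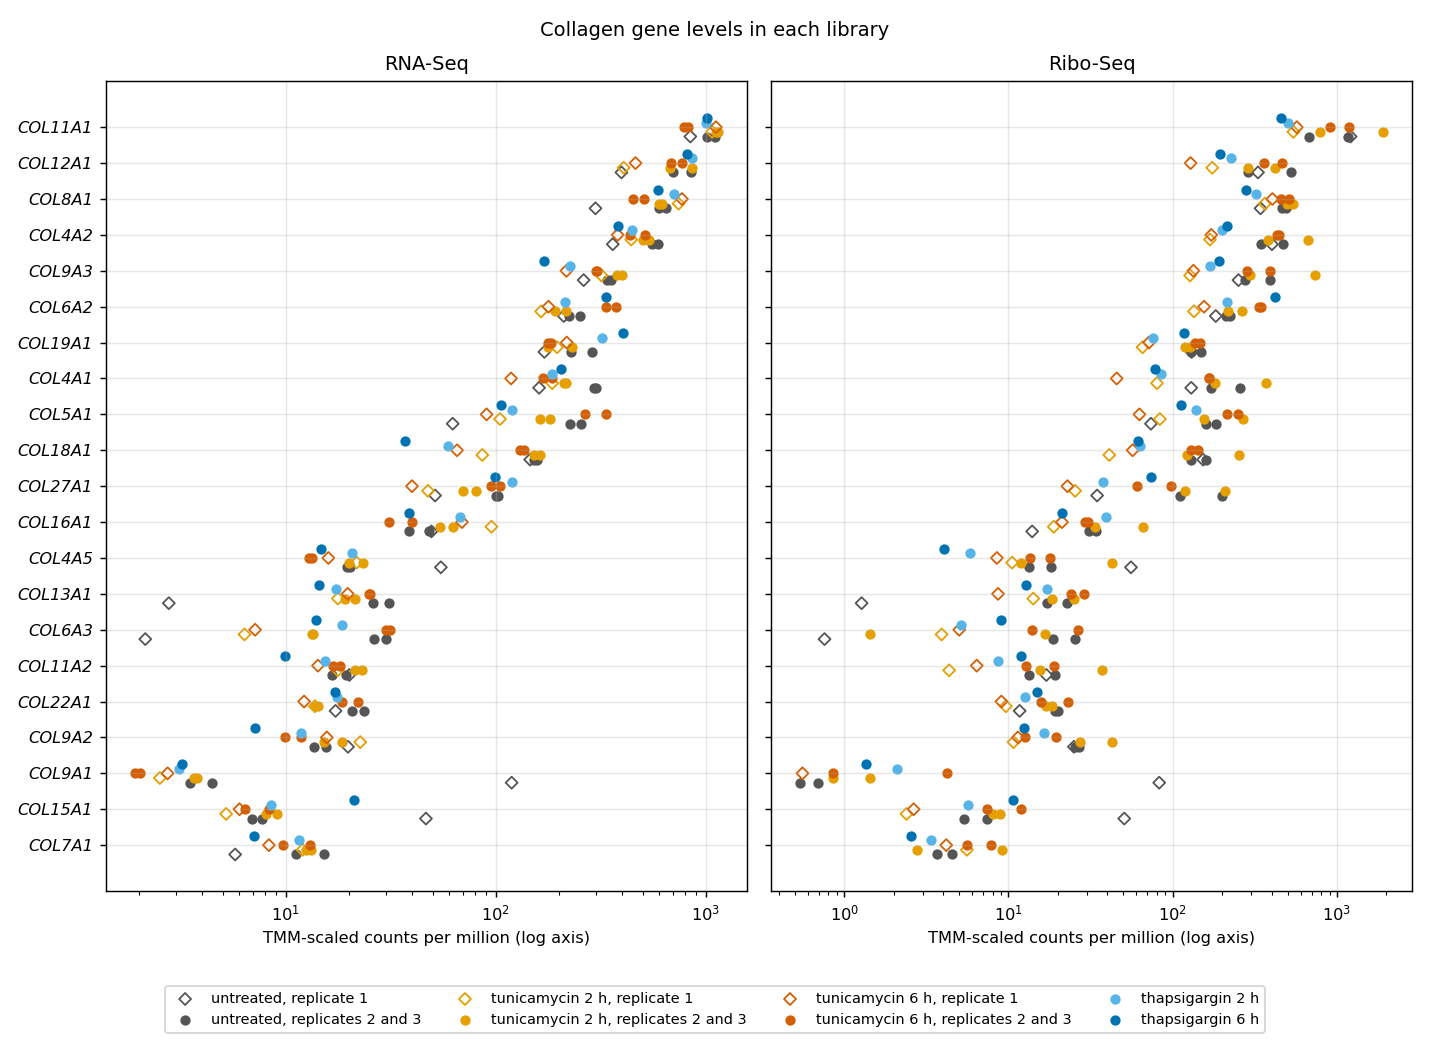
TMM-scaled CPM (log axes) of the 21 collagen genes described singly, in RNA-Seq (left) and Ribo-Seq (right), 1 symbol per library, with replicate 1 of the untreated and tunicamycin groups as open diamonds and 2 footprint values of 0 (COL7A1 in untreated replicate 1, COL9A1 in tunicamycin 2 h replicate 1) not drawn. Groups overlap for most genes, and untreated replicate 1 stands apart for COL9A1 and COL15A1 (high) and COL6A3 and COL13A1 (low) in both assays.

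Untreated replicate 1 carried a different set of collagen mRNAs from untreated replicates 2 and 3. COL9A1, a chain of the fibril-associated type IX collagen, was at 119 CPM of RNA in replicate 1 and 3.49 and 4.45 in replicates 2 and 3. Its footprints were at 82.7 CPM (2397 counts) against 0.688 and 0.540 (6 and 5 counts). Both assays thus set that library far above its group. COL15A1, a basement membrane zone collagen, was at 46.5 against 6.93 and 7.69 CPM of RNA and 50.7 against 5.39 and 7.45 CPM of footprints. COL4A5, a type IV chain, was at 54.8 against 20.1 and 19.6 CPM of RNA and 55.7 against 13.4 and 18.2 CPM of footprints.
COL6A3, the largest chain of beaded-filament collagen VI, differed in the other direction, at 2.14 against 30 and 26.3 CPM of RNA and 0.759 against 25.2 and 18.8 CPM of footprints. The transmembrane collagen gene COL13A1 was at 2.77 against 26 and 31 CPM of RNA and 1.28 against 17.1 and 22.6 CPM of footprints. COL5A1, which limits the width of fibrils, was at 62.3 against 254 and 226 CPM of RNA. These 6 genes were past 2-fold in the same direction in both assays. For COL7A1, the anchoring fibril collagen, no footprint was counted in replicate 1 (which allows up to 0.103 CPM), against 3.67 and 4.53 CPM in the others, although its RNA was at 5.74, 15.3 and 11.2 CPM. Over the 20 genes with values in both assays the log2 ratio of replicate 1 to the mean of the others had the same sign in 16 and Pearson's r was 0.96, a description of single libraries that share a replicate number. The same values were not computed over all genes, so they describe that library and do not set collagen genes apart. In that library VIM (451 CPM of RNA) and NES (241) were also lowest of all libraries.

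**Figure D2:**
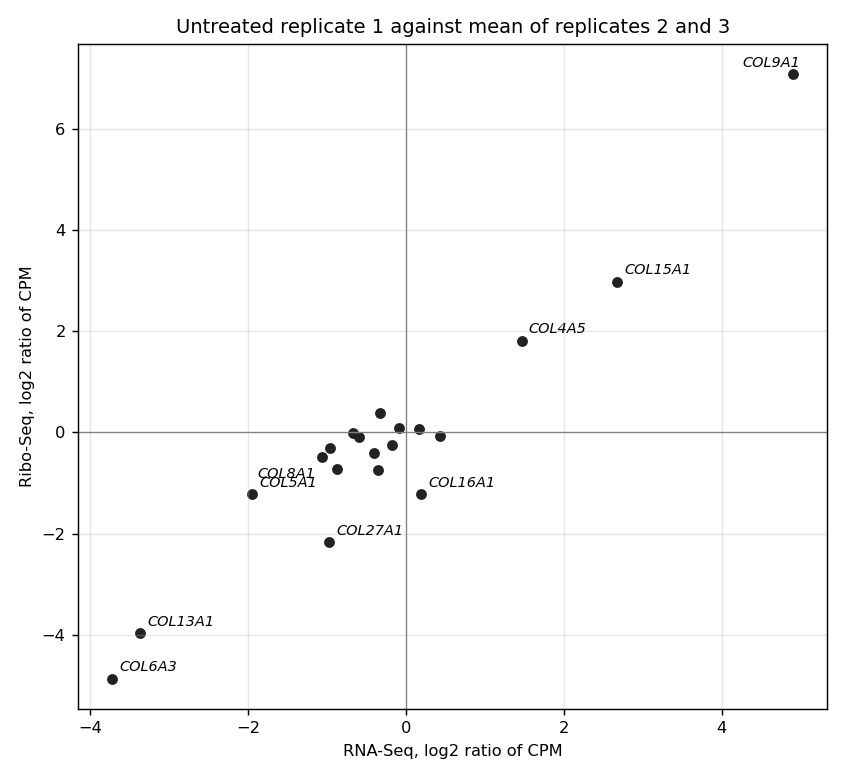
Log2 ratio of CPM in untreated replicate 1 to the mean of untreated replicates 2 and 3, RNA-Seq (x axis) against Ribo-Seq (y axis), 1 point for each of 20 collagen genes, with names for those past 2-fold in either assay. COL9A1, COL15A1 and COL4A5 are high in both assays and COL6A3, COL13A1 and COL5A1 low in both.

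After 2 h of tunicamycin no collagen gene passed edgeR's quasi-likelihood test in RNA-Seq (0 of 43), where 0.00973% of all 41130 tested genes did. With an unadjusted p under 0.05, 0 were higher (1.37% of all genes) and 10 lower (23.3%, against 6.69% of all genes), and DESeq2 called 0 too. The median log2 fold change was -0.27, against -0.17 for all genes. It was -0.20 against 0.04 without untreated replicate 1, -0.16 against -0.18 without tunicamycin 2 h replicate 1 and -0.02 against 0.01 with replicates 2 and 3 alone. Groups did not overlap for 1 higher gene, COL16A1 (3.44% of all genes), and for 7 lower genes (5.88% of all genes). COL16A1, a fibril-associated collagen, was at 49.4, 48.3 and 38.4 CPM in untreated cells and 95.4, 62.2 and 54.2 after 2 h (0.64 ± 0.32 SE). COL22A1, which marks tissue junctions, was at 17.2, 23.6 and 20.6 CPM and then 13.7, 14.3 and 13.8 (-0.56 ± 0.25). The 10 genes with a low p were COL1A2, COL4A3, COL6A5, COL6A6, COL9A1, COL15A1, COL20A1, COL22A1, COL23A1 and COL26A1, and in 9 of them, all but COL22A1, the untreated level was highest in replicate 1. COL6A5 and COL26A1 passed the filter only through that library, and COL6A5 is also among the 7 lower genes without overlap, so neither is evidence of a fall.

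After 6 h of tunicamycin again no collagen gene passed the test in RNA-Seq (0 of 43, where 1.5% of all genes did). The lowest adjusted p (edgeR, Benjamini-Hochberg) was 0.12, that of COL9A1. With an unadjusted p under 0.05, 0 were higher (6.33% of all genes) and 13 lower (30.2%, against 11% of all genes). How many of these 13 rest on untreated replicate 1 was not counted, so the share alone does not show a fall across collagen genes. The median log2 fold change was -0.39 against -0.27 for all genes, or -0.72 against -0.58 when libraries were scaled by their size alone. Without untreated replicate 1 it was -0.30 against -0.01. Groups did not overlap for 0 higher genes (10.5% of all genes) and for 9 lower ones (20.9%, against 10.6% of all genes). Those 9 were COL1A1, COL1A2, COL4A5, COL6A5, COL6A6, COL8A2, COL9A1, COL10A1 and COL18A1. All but COL1A1 and COL18A1 had their highest RNA level in untreated replicate 1, by a small margin for COL10A1 (2.97 against 2.89 and 2.91 CPM). COL6A5 passed the filter only through untreated replicate 1 and had 0 or 1 counts in all other RNA-Seq libraries, so its place here is no evidence of a fall.

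Among type IV chains COL4A1 RNA was at 161, 292 and 299 CPM in untreated replicates 1, 2 and 3, at 186, 215 and 212 after 2 h and at 118, 185 and 167 after 6 h. It was lower at 6 h than in the same-numbered untreated library in each of the 3 pairs, by -0.44, -0.66 and -0.84 on the log2 scale. The fold change was -0.68 ± 0.28 (adjusted p = 0.26, edgeR over all libraries) and -0.69 ± 0.15 with the replicate number as a block (adjusted p = 0.0400). The block fit also left out the thapsigargin libraries and tested 29330 genes instead of 41130. The changed call can therefore not be laid to the pairing alone. Replicates 2 and 3 alone, fitted with no pairing, gave a call too (-0.72 ± 0.10, adjusted p = 0.000806, edgeR). Its partner COL4A2 was at 361, 593 and 556 CPM untreated, 442, 537 and 503 after 2 h and 381, 514 and 434 after 6 h, and the groups overlapped (-0.18 ± 0.25). COL4A5 was at 54.8, 20.1 and 19.6 CPM, then 21.8, 20 and 23.3, and at 6 h 15.9, 12.9 and 13.3. The 3 libraries of 6 h lay below all untreated and 2 h libraries (-1.17 ± 0.37, adjusted p = 0.17 in edgeR), and DESeq2 called it alone among the 43 (-1.22, adjusted p = 0.0447, 6.04% of all genes called). With replicates 2 and 3 alone it was -0.58 ± 0.11 (adjusted p = 0.00621, edgeR), so replicate 1 moves the value over 1.5 times. COL4A6, which faces COL4A5, was at 6.32, 2.62 and 2.89 CPM untreated and at 3.07, 2.72 and 3.11 after 6 h (-0.41 ± 0.34).

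Fibrillar chains gave no call over all libraries at either time. COL11A1 was at 845, 1013 and 1111 CPM untreated, 1072, 1117 and 1144 after 2 h and 1118, 823 and 791 after 6 h. Its replicate 1 was lowest before treatment and highest at 6 h, and the fold change at 6 h was -0.12 ± 0.23. COL11A2, a second chain of type XI, was at 20.1, 19.3 and 16.6 CPM, then 17.7, 23 and 21.3, then 14.2, 18.2 and 16.8. COL5A1 was at 62.3, 254 and 226 CPM untreated, 105, 162 and 181 after 2 h and 90.4, 266 and 336 after 6 h. Replicates 2 and 3 were lower at 2 h and back at or above the untreated level at 6 h, whereas replicate 1 was low throughout (0.35 ± 0.54 at 6 h). COL27A1, a fibrillar collagen of cartilage and other tissues, was at 51.4, 102 and 99.9 CPM, then 47.6, 80.4 and 69.4, then 39.9, 105 and 94.4.

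Of the beaded-filament chains, COL6A2 and COL6A3 were likewise lower at 2 h and higher at 6 h than untreated in replicates 2 and 3. COL6A3 was at 2.14, 30 and 26.3 CPM untreated, 6.36, 13.3 and 13.4 after 2 h and 7.14, 31.4 and 30.1 after 6 h. COL6A2 was at 211, 224 and 251 CPM, then 164, 191 and 215, then 178, 335 and 373. Over all libraries neither passed (COL6A2 0.37 ± 0.28 and COL6A3 0.23 ± 0.78 at 6 h).

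The fibril-associated chains gave no call over all libraries. COL12A1, which decorates fibrils of type I collagen, was at 397, 696 and 855 CPM untreated, 407, 674 and 857 after 2 h and 463, 681 and 775 after 6 h, and each replicate kept its rank. COL19A1 was at 170, 228 and 288 CPM, then 196, 177 and 230, then 218, 177 and 183. COL16A1 was back at 69, 39.9 and 31.2 CPM after 6 h, and COL22A1 was then at 12.2, 22.1 and 18.6. Of the chains of type IX collagen, COL9A3 was at 262, 340 and 353 CPM untreated, 319, 378 and 397 after 2 h and 217, 300 and 303 after 6 h. COL9A2 was at 19.8, 15.6 and 13.7 CPM, then 22.6, 18.6 and 15.2, then 15.7, 11.8 and 9.93. Both type IX chains were a little higher at 2 h and lower at 6 h in each replicate number, but their groups overlapped against untreated cells. COL9A1 was at 2.51, 3.67 and 3.76 CPM after 2 h and 2.74, 2.01 and 1.91 after 6 h, so that its fold change of -4.25 ± 1.16 at 6 h rested on the 119 CPM of untreated replicate 1. With replicates 2 and 3 alone it was -0.99 ± 0.18 (adjusted p = 0.00476, edgeR).

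The remaining 5 genes fall in other classes. COL8A1, a network former of vessel walls, was at 299, 645 and 601 CPM untreated, 742, 599 and 616 after 2 h and 770, 508 and 453 after 6 h. It was higher at 6 h than untreated in replicate 1 and lower in replicates 2 and 3. The endostatin-bearing COL18A1 was at 146, 157 and 153 CPM, then 86.3, 152 and 162, then 65.4, 136 and 130. All of its 6 h libraries lay below all untreated ones, with replicate 1 much the lowest (-0.46 ± 0.32). COL15A1 was at 46.5, 6.93 and 7.69 CPM, then 5.19, 8.09 and 9.04, then 6.02, 6.40 and 8.27, and its fold change of -1.56 ± 0.64 was 0.03 ± 0.16 without replicates 1. COL13A1 was at 17.7, 21.3 and 19.2 CPM after 2 h and 19.7, 25.0 and 25.3 after 6 h (0.23 ± 0.61 at 6 h). COL7A1 was at 5.74, 15.3 and 11.2 CPM, then 12.0, 12.5 and 13.2, then 8.30, 13.1 and 9.72.

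Between 2 h and 6 h of tunicamycin no collagen gene passed in RNA-Seq either (0 of 43, where 0.742% of all genes did, 0.588% higher and 0.153% lower). With an unadjusted p under 0.05, 2 were higher (COL4A3, COL6A2) and 2 lower (COL2A1, COL9A2), 4.65% each against 5.26% and 4.49% of all genes. Groups did not overlap for 1 higher gene, COL4A3 (10.3% of all genes), and for 4 lower ones, COL2A1, COL4A1, COL4A5 and COL9A3 (9.21% of all genes). COL4A3, a type IV chain named here after its values were seen, was at 2.16, 1.87 and 1.75 CPM after 2 h and 3.66, 3.27 and 3.81 after 6 h. That is 0.90 ± 0.25 (adjusted p = 0.18), and 0.92 ± 0.20 with the replicate block (adjusted p = 0.0456). Its untreated level of 3.73, 2.50 and 2.89 CPM overlapped that of 6 h, and its partner COL4A4 was at 3.05, 4.32 and 4.98 CPM after 2 h and 3.70, 5.46 and 6.25 after 6 h (0.32 ± 0.28). COL9A2 was -0.59 ± 0.26 (adjusted p = 0.49) and -0.58 ± 0.12 with the block (adjusted p = 0.0396). The block called 2 of 41 genes in this comparison (5.63% of all genes) and 1 of 41 at 6 h against untreated cells (7.86%). DESeq2 called COL4A3 alone (0.89, adjusted p = 0.0142, 3.85% of all genes).

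A fit of replicates 2 and 3 alone was added with the values known. It called 3 of 41 collagen genes at 2 h (4.40% of all genes), 9 at 6 h (19.4%) and 17 between 2 h and 6 h (25.1%). The shares of members called were 7.32% at 2 h, 22% at 6 h and 41.5% between 2 h and 6 h. At 6 h the total lies near that of all genes, but the directions differ. Higher calls were 4.88% of members against 10.6% of all genes, and lower calls 17.1% against 8.82%. Between 2 h and 6 h higher calls were 17.1% against 12.6%, and lower calls 24.4% against 12.5%. Differences between these shares were not tested. At 2 h COL6A3 (-1.06 ± 0.10, adjusted p = 0.00143), COL22A1 (-0.64 ± 0.12) and COL4A1 (-0.45 ± 0.09) were lower. At 6 h COL6A2 (0.60 ± 0.11) and COL5A3 (0.66 ± 0.17) were higher, and COL4A1 (-0.72 ± 0.10, adjusted p = 0.000806), COL4A5, COL8A1 (-0.35 ± 0.10), COL9A1, COL11A1 (-0.37 ± 0.10), COL19A1 (-0.49 ± 0.14) and COL21A1 (-1.05 ± 0.32) lower. From 2 h to 6 h chains of types V and VI were higher, COL6A3 (1.21 ± 0.10), COL5A3 (1.17 ± 0.17), COL5A1 (0.82 ± 0.13) and COL6A2 (0.81 ± 0.11), together with COL4A3, COL22A1 and COL27A1. The 10 lower ones were COL2A1 (-1.80 ± 0.29), COL21A1, COL28A1, COL4A5, COL8A1, COL11A1, COL16A1 and the type IX chains COL9A1, COL9A2 and COL9A3. In replicate 1 COL5A1 was at 105 and 90.4 CPM, COL6A2 at 164 and 178 and COL6A3 at 6.36 and 7.14 at these times.

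**Figure D3:**
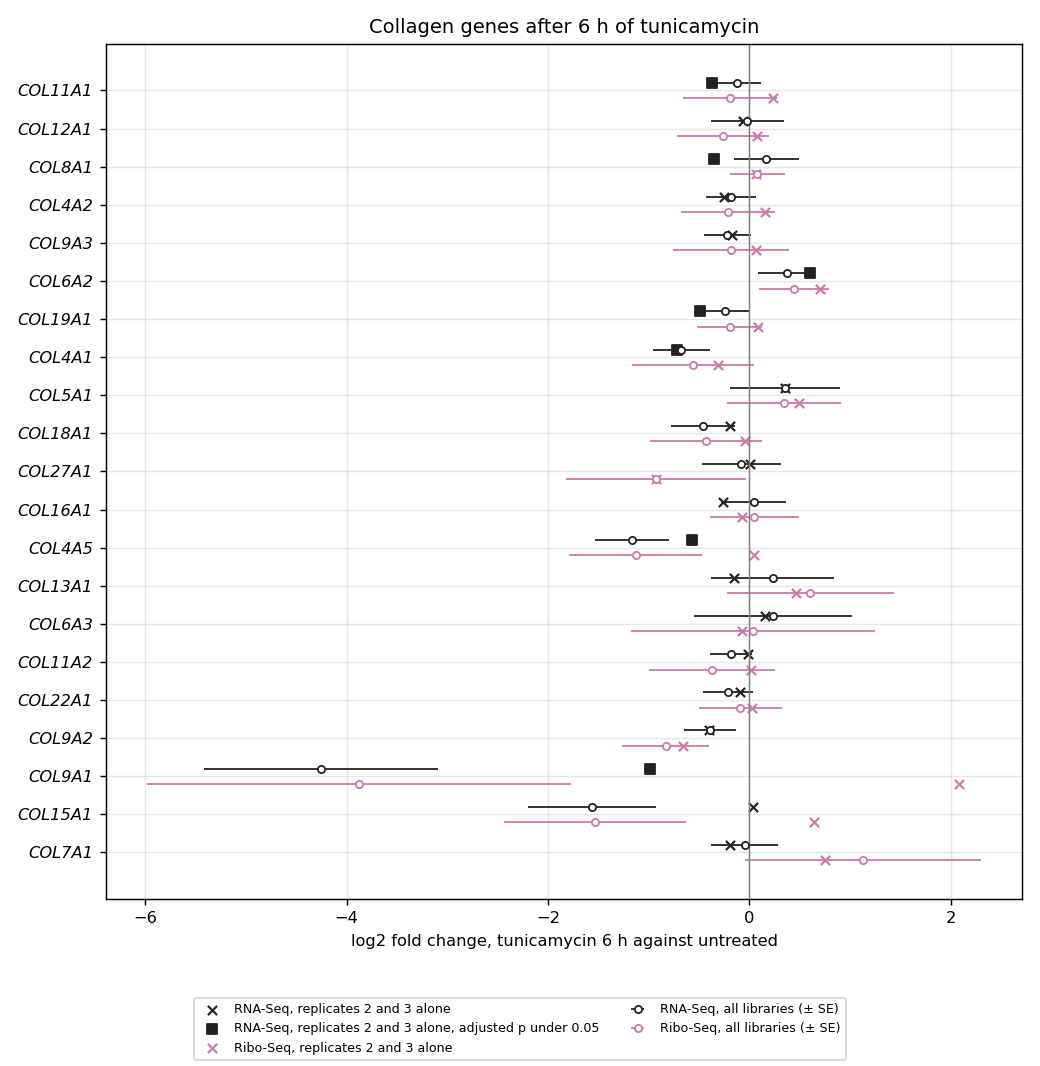
Log2 fold change of 21 collagen genes after 6 h of tunicamycin against untreated cells, RNA-Seq in black and Ribo-Seq in pink, as open circles with SE bars (all libraries, none with an adjusted p under 0.05) and as crosses or filled squares (replicates 2 and 3 alone, squares for an adjusted p under 0.05). COL9A1 and COL15A1 move most when replicates 1 are left out, and COL8A1 is on opposite sides of 0.

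Footprints of collagen mRNAs gave no call over all libraries: 0 of 35 at 2 h, at 6 h and between them by edgeR and by DESeq2, where edgeR called 0, 0.84 and 0.752% of the 19411 tested genes. With an unadjusted p under 0.05 there were 0 at 2 h (1.11% of all genes higher and 2.08% lower), 0 at 6 h (5.17% and 6.9%) and 1 from 2 h to 6 h, COL1A2, higher (5.2% of all genes). Median log2 fold changes were 0.04, -0.19 and -0.28, against -0.02, -0.07 and -0.04 for all genes, but single libraries set their sign. At 2 h the median was 0.36 without tunicamycin 2 h replicate 1 and -0.48 without replicate 3. At 6 h it was 0.11 without tunicamycin 6 h replicate 1 and -0.38 without replicate 3, and from 2 h to 6 h 0.35 without 2 h replicate 3 and -0.60 without 2 h replicate 1. Groups did not overlap at 2 h for 2 higher genes (COL1A1 and COL2A1, 2.58% of all genes) and 1 lower (COL19A1, 3.76%). At 6 h they did not for COL1A2 (higher, 9.54% of all) and COL9A2 (lower, 11.1%), and from 2 h to 6 h for COL1A2 and COL5A3 (both higher, 9.10% of all) and 0 lower (8.53%). COL9A2 footprints were at 25.0, 25.6 and 26.8 CPM untreated and 11.4, 19.4 and 12.6 after 6 h (-0.83 ± 0.43, adjusted p = 0.47), with 10.7, 27.1 and 42.6 at 2 h. COL1A2 had 14, 1 and 9 footprint counts in untreated cells and 7, 10 and 46 after 6 h, so that its values rest on few counts.

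Footprint levels of abundant members overlapped between groups. COL11A1 footprints were at 1210, 672 and 1169 CPM untreated, 542, 785 and 1913 after 2 h and 569, 912 and 1183 after 6 h. COL4A1 footprints were at 130, 170 and 258 CPM, then 80.2, 180 and 372, then 45.6, 166 and 167 (-0.56 ± 0.61 at 6 h). COL5A1 footprints were at 73.7, 159 and 183 CPM, then 83.4, 154 and 266, then 62.7, 215 and 251 (0.35 ± 0.57). In all 3 genes tunicamycin replicate 1 was lowest of its group at both times, and replicate 3 of 2 h, the shallowest library at 4387173 counts, was highest of its group. COL6A2 footprints were at 183, 210 and 223 CPM, then 135, 215 and 266, then 155, 336 and 345. Replicates 2 and 3 of 6 h lay above the other 7 of these libraries. COL8A1 footprints stayed between 342 and 538 CPM over all 9 libraries (0.08 ± 0.28 at 6 h). COL27A1 footprints ranged from 22.9 to 208 CPM, with 34.6, 199 and 110 in untreated cells. They were lower at 6 h than at 2 h in the 3 same-numbered pairs (-0.16, -1.10 and -0.97 on the log2 scale), and the replicate block with no untreated replicate 1 called this difference (-0.73 ± 0.19, adjusted p = 0.0409 in edgeR, 10.1% of all genes called). COL6A6, a beaded-filament gene with 1.07 to 2.19 CPM of RNA, had 329 footprint counts (36.7 CPM) in tunicamycin 6 h replicate 3 and 0 to 10 in each other Ribo-Seq library. It is named here after its values were seen, as are COL1A2 and COL6A5.

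Footprints relative to RNA were tested by edgeR with the assay-by-treatment term of a joint model, which gave 0 of 35 calls at 2 h, at 6 h and between them, as for all 18500 genes (0% each). DESeq2 called 0 collagen genes too. With an unadjusted p under 0.05 there were 0, 2 and 1 (2.45, 2.7 and 1.25% of all genes, higher), which were COL1A2 and COL6A6 at 6 h and COL6A6 from 2 h to 6 h. Of the COL6A6 footprints, 329 counts came from tunicamycin 6 h replicate 3 and 0 to 10 from each other library, so that gene passed the filter only through it. COL1A2 footprints were higher at 6 h than untreated in each of the 3 same-numbered pairs, by 1.01, 3.41 and 2.40 on the log2 scale. These pairs rest on few counts, 14, 1 and 9 untreated and 7, 10 and 46 after 6 h. The highest COL1A2 level was also in tunicamycin 6 h replicate 3. Neither gene is therefore evidence of a rise relative to RNA. Medians were 0.24, 0.12 and -0.09, against -0.02, -0.08 and -0.05 for all genes, and changed sign with single Ribo-Seq libraries. At 2 h the median was 0.61 without 2 h replicate 1 and -0.26 without replicate 3, at 6 h 0.41 without 6 h replicate 1 and -0.13 without replicate 3, and between the times -0.42 without 2 h replicate 1 and 0.35 without 2 h replicate 3. The ratio of footprint CPM to RNA CPM in untreated cells, as log2 over same-numbered libraries, was below 0 in all 3 replicates for 9 of 20 genes and above 0 in all 3 for COL9A2 alone (0.67 ± 0.32 SD, n = 3). The mean ratios had a median of -0.23 and ran from -1.97 ± 1.30 (COL9A1) to that of COL9A2. Each assay was scaled separately, so 0 is no absolute reference. The ratio was not computed over all genes, so these counts do not show a low ratio of collagen genes. COL6A2 had the smallest spread (-0.16 ± 0.06). COL12A1 was at -0.26, -1.27 and -0.71, COL19A1 at -0.39, -0.83 and -0.96 and COL16A1 at -1.82, -0.65 and -0.18 in replicates 1, 2 and 3. The counted feature type is not given, so reads in untranslated regions may enter the RNA side, and these ratios do not rank genes by translation.

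Thapsigargin had 1 library per time and assay, so its values carry no test and no replicate check. In RNA-Seq 1 collagen gene was past 2-fold higher and 11 lower than the untreated groups after 2 h (6.7% and 35.8% of all genes), and 1 higher and 14 lower after 6 h (9.64% and 38.7%, in all 48.4%). In Ribo-Seq it was 0 higher and 15 lower of 35 after 2 h (9.12% and 23.2%) and 3 higher and 10 lower after 6 h (12.5% and 30.1%). A count of members outside all untreated and same-time tunicamycin libraries gave 4 above and 9 below in RNA-Seq after 2 h (14.9% and 14.1% of all genes) and 5 above and 10 below after 6 h (14.5% and 16.2%). In Ribo-Seq it gave 0 above and 5 below of 35 after 2 h (13.2% and 12.1%) and 2 above and 5 below after 6 h (17.7% and 20.3%). COL18A1 RNA was at 59.1 and 36.9 CPM after 2 h and 6 h of thapsigargin, below the 65.4 to 162 of all untreated and tunicamycin libraries. Tunicamycin replicate 1, the libraries thapsigargin lay with, was also low, at 86.3 and 65.4 CPM against 130 to 162 in the other untreated and tunicamycin libraries. Drug and library cannot be told apart for that part of the difference. COL9A3 was at 225 and 169 CPM, COL11A2 at 15.3 and 9.86 and COL9A2 at 11.8 and 7.11, each below all untreated libraries and those of tunicamycin at the same time. COL19A1 went the other way, at 319 and 403 CPM against 170 to 288 in all untreated and tunicamycin libraries. These 5 genes kept their side at both times.

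In footprints COL19A1 was not set apart, at 75.5 and 117 CPM of thapsigargin against 65.5 to 148 in the others. COL11A1 (502 and 459 CPM), COL8A1 (321 and 281) and COL4A5 (5.83 and 4.05) had fewer footprints than any untreated or same-time tunicamycin library, and COL6A2 (418 CPM at 6 h) had more. Tunicamycin replicate 1 was also lower than the other untreated and tunicamycin libraries for COL11A1 (542 and 569 CPM) and COL4A5 (10.5 and 8.50). For COL8A1 it was within the untreated range (363 and 404) but below tunicamycin replicates 2 and 3 (495 to 538 and 453 to 510). The low end of that untreated range was replicate 1 (342 CPM, against 460 and 492 in replicates 2 and 3). Drug and library cannot be told apart for COL11A1, COL4A5 and COL8A1. COL15A1 RNA was at 8.47 and 21.1 CPM, COL4A4 RNA at 3.09 and 8.58 and COL14A1 RNA at 0.518 and 0.329 after 2 h and 6 h, the last against 1.36 to 2.81 in untreated and tunicamycin libraries. COL5A2 RNA was at 8.36 and 8.41 CPM in thapsigargin and at 6.92 and 7.07 in tunicamycin replicate 1, against 2.56 to 3.89 in the other libraries. Thapsigargin thus shared the COL5A2 level of tunicamycin replicate 1, the libraries it lay with, and drug and library cannot be told apart there. COL12A1 RNA was at 861 and 810 CPM in thapsigargin and 407 and 463 in tunicamycin replicate 1, and COL27A1 RNA at 119 and 99.2 against 47.6 and 39.9, so that these 2 genes differed within that set of libraries.

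**Figure D4:**
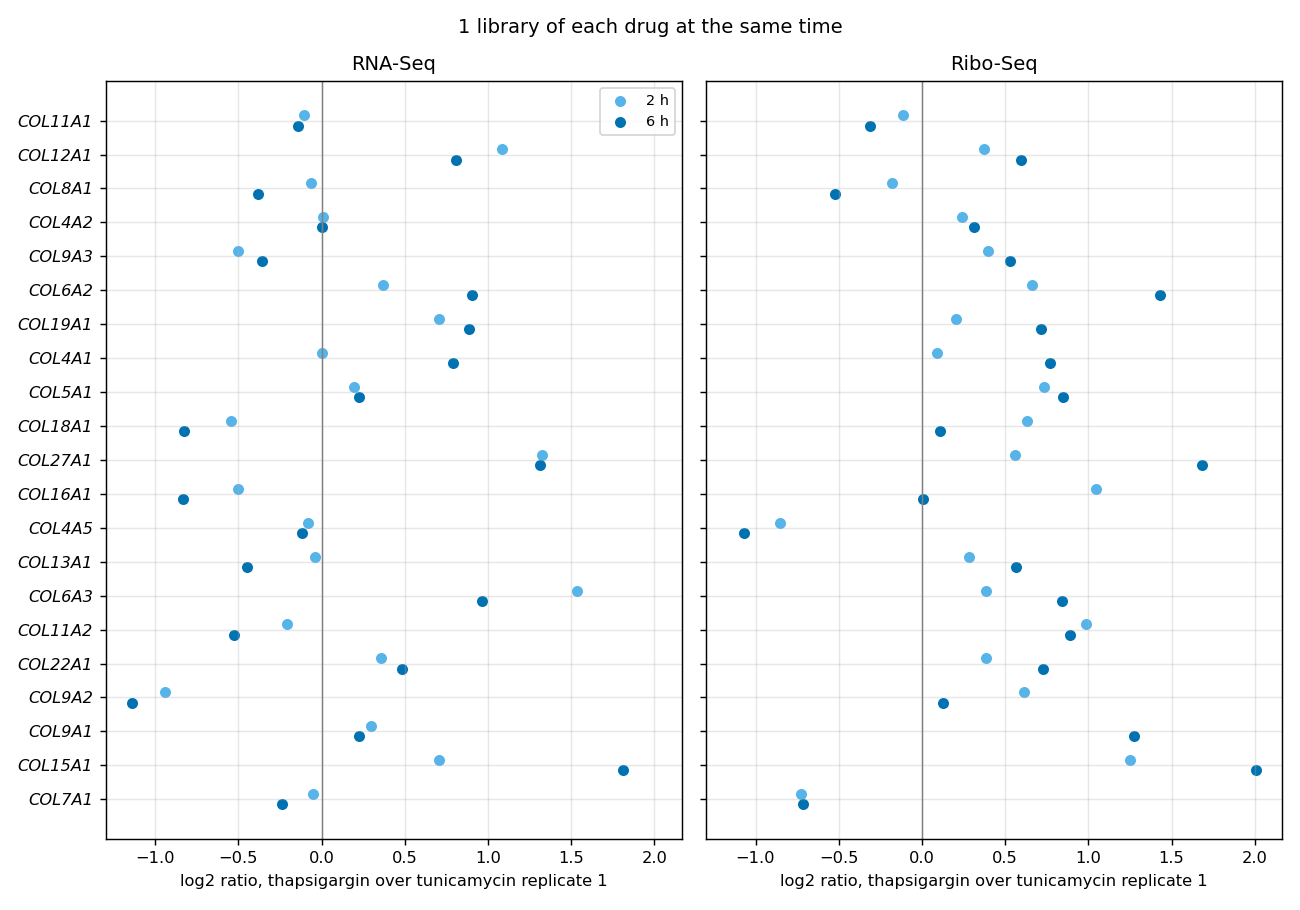
Log2 ratio of CPM in the thapsigargin library to tunicamycin replicate 1 at 2 h (light blue) and 6 h (dark blue) for 21 collagen genes, in RNA-Seq (left) and Ribo-Seq (right), 1 library of each drug per point. COL15A1, COL27A1 and COL12A1 RNA are to the right at both times, COL18A1 and COL9A2 RNA to the left, and COL4A5 footprints to the left.

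Genes that make, fold and export collagen were followed as 92 genes in 7 lists chosen with earlier results of these data known. After 2 h of tunicamycin none of them passed edgeR's test in RNA-Seq (0 of 92, with 5 at an unadjusted p under 0.05) or Ribo-Seq (0 of 83, with 4), and DESeq2 called 0 in both. After 6 h 8 rose and 1 fell in RNA-Seq (1.23% and 0.275% of all genes), and 4 of 83 rose in Ribo-Seq (0.67% of all genes), while DESeq2 called 15 higher and 4 lower in RNA-Seq and 8 higher in Ribo-Seq (3.38%, 2.66% and 1.94% of all genes). Of 16 genes for export from the ER 5 rose, with a list median of 0.97 against -0.27 for all genes. SEC24D, a cargo adaptor of the COPII coat needed for procollagen exit, was at 36.0, 116 and 131 CPM of RNA untreated, 82.1, 112 and 123 after 2 h and 486, 497 and 594 after 6 h (2.48 ± 0.42, adjusted p = 0.019 in edgeR). SEC23B of the inner coat was at 79.0, 106 and 96.5, then 169, 103 and 113, then 529, 303 and 384 CPM (2.11 ± 0.29). MIA2, a partner of TANGO1 at ER exit sites, was at 2.95, 2.50 and 2.42, then 2.39, 2.93 and 2.22, then 10.3, 9.30 and 11.3 CPM (1.97 ± 0.24). In these 3 genes all 6 h libraries of tunicamycin lay above all untreated and 2 h libraries. PREB, which activates the coat GTPase (1.71 ± 0.24), and SEC31A of the outer coat (1.40 ± 0.23) rose too. MIA3, which encodes TANGO1, was at 1.05 ± 0.26 and did not pass (adjusted p = 0.088).

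Of 8 chaperones and ER factors 2 rose, LARP6, which binds a stem-loop in mRNAs of type I collagen (12.1, 27.7 and 22.8 CPM untreated, 89.4, 72 and 91.4 after 6 h, 2.01 ± 0.29), and FKBP14, a prolyl isomerase of collagens (69.7, 53.3 and 58.0 CPM, then 268, 182 and 230, 1.91 ± 0.24). SERPINH1, the gene of HSP47, was at 587, 500 and 518 CPM untreated and 575, 507 and 502 after 6 h (-0.02 ± 0.22), with overlapping groups. None of 15 hydroxylation and glycosylation genes passed, with P4HA1 at -0.03 ± 0.21, P4HB at 0.80 ± 0.33 and PLOD2 at 0.63 ± 0.33. None of 14 processing and cross-linking genes (LOX 0.24 ± 0.22) and none of 14 degradation genes passed. Of 10 receptors DDR2, a receptor kinase for fibrillar collagen, rose (139, 185 and 180 CPM, then 740, 465 and 493, 1.75 ± 0.25). Of 15 transcription factors and signals TGFB3, a growth factor that induces matrix genes, fell (6.13, 5.36 and 5.38 CPM, then 2.45, 2.10 and 1.97, -1.37 ± 0.23), while CREB3L1, a factor for procollagen genes, was at 0.0791 to 0.829 CPM in all RNA-Seq libraries. Adjusted p was 0.003 to 0.019 for the 9 calls.

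When 1 library was left out, SEC24D was lost without untreated replicate 2 (adjusted p = 0.0594) or without tunicamycin 6 h replicates 2 (0.0534) or 3 (0.0764). SEC31A was lost without untreated replicate 2 (0.0633) or tunicamycin 6 h replicate 3 (0.0694), and TGFB3 without those (0.0697 and 0.103) or tunicamycin 6 h replicate 2 (0.0823). The other 6 were called whichever library was left out. In Ribo-Seq SEC24D (2.37 ± 0.30), SEC23B (2.01 ± 0.28), LARP6 (1.90 ± 0.28) and PREB (1.51 ± 0.23) rose after 6 h. SEC23B was lost without untreated replicate 2 (0.0541), LARP6 without untreated replicate 2 (0.0613) or tunicamycin 6 h replicate 3 (0.0559), and PREB without untreated replicates 2 (0.0613) or 3 (0.064) or tunicamycin 6 h replicates 2 (0.0517) or 3 (0.0559). MIA2 footprints were at 1.21, 2.87 and 2.48 CPM untreated and 6.69, 5.60 and 2.68 after 6 h (1.2 ± 0.61). No gene of the lists passed for footprints relative to RNA (0 of 83 by edgeR and by DESeq2, with 1 at 2 h and 3 at 6 h at an unadjusted p under 0.05 in edgeR). In thapsigargin SEC24D RNA was at 181 and 562 CPM after 2 h and 6 h, SEC23B at 191 and 643, MIA2 at 4.88 and 11.6 and LARP6 at 23.8 and 72.9, so that the 6 h values of all 4 lay above all untreated libraries.

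**Figure D5:**
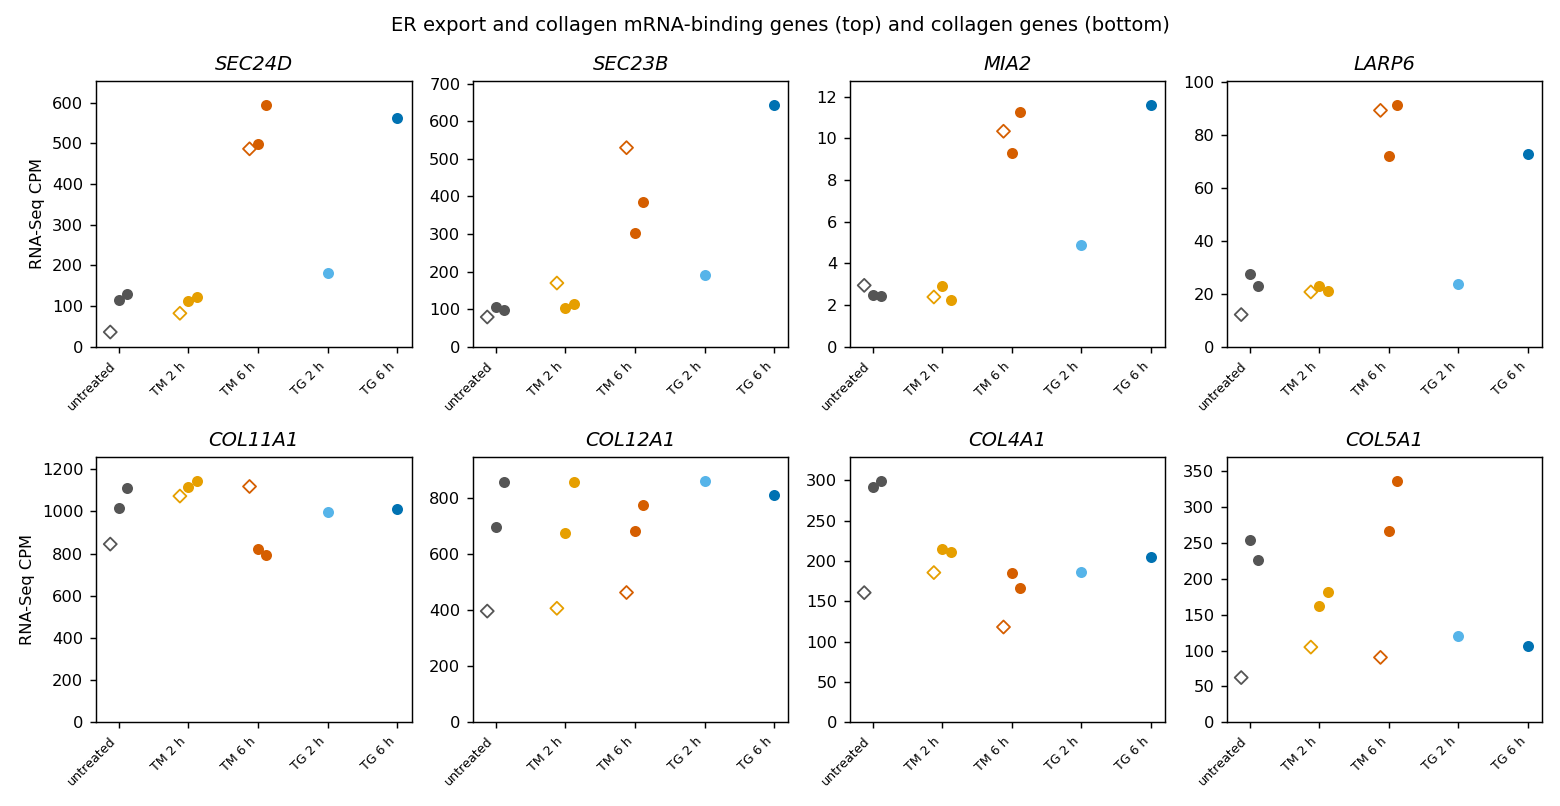
RNA-Seq CPM per library of SEC24D, SEC23B, MIA2 and LARP6 (top) and of the collagen genes COL11A1, COL12A1, COL4A1 and COL5A1 (bottom), by group (TM, tunicamycin, and TG, thapsigargin), with open diamonds for replicate 1 of the untreated and tunicamycin groups. The 4 upper genes are higher in all 6 h libraries than in all untreated ones, and the tunicamycin values of the 4 collagen genes overlap the untreated ones.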

How the data were processed

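For each of 22 libraries the authors deposited unnormalized counts of reads per gene. STAR 2.5.4b, HTSeq, DESeq2 and build GRCh38 are named per the submitters' processing notes. What each was used for, and which annotation, feature type and strand option applied, is not given in the sources used here, so overlapping or antisense reads cannot be told apart. Group and replicate of each library follow its label.

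Collagen genes were found by symbol; 1 gene that fits the pattern is not analysed here. The members and gene lists were chosen with earlier results of these data known. Genes were kept by filterByExpr (minimum count 10), scaled by TMM within an assay and fitted over all its libraries with edgeR 4.0.16 (glmQLFit robust, glmQLFTest, R 4.3.3). P-values were adjusted by Benjamini-Hochberg over all genes tested (RNA-Seq 41130, Ribo-Seq 19411, joint model 18500), with calls under 0.05. Genes are described singly if called in any of 9 comparisons or at a mean of at least 5 RNA-Seq CPM and past the Ribo-Seq filter; pathway genes are named if called, up to 4 per list and comparison by smallest p, beside 8 fixed ones. Collagen genes below 5 CPM that the text names were chosen after their values were seen. Fits were tested on simulated data. Alternatives were DESeq2 1.42.0, library size alone, no filter, the compared groups alone, the replicate block, and leaving out replicates.

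Same-numbered libraries deviated together in every pair (correlation over 0.1) for RNA-Seq 6 h against untreated (0.109 to 0.226) and 6 h against 2 h (0.414 to 0.676), and in Ribo-Seq (0.122 to 0.407), but not for RNA-Seq 2 h against untreated, where replicate 2 had 0.0757. The best correlation with a library of another number was lower in every pair. In RNA-Seq it was near for replicate 2 at 6 h against untreated (0.0979 against 0.109). At 6 h against 2 h it was 0.317 and 0.324 for replicates 2 and 3 (against 0.414 and 0.435) and -0.491 for replicate 1. RNA-Seq thus set replicate 1 apart more clearly than it paired replicates 2 and 3. The pairing comes from the data, and the labels give only the numbers.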

Additional observations from a re-analysis of the deposited data

Results flagged for a closer look

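In edgeR's test over all libraries no collagen gene differed between 6 h and 2 h of tunicamycin, while DESeq2 (COL4A3), the replicate block (COL4A3 and COL9A2) and the fits with fewer libraries made calls in RNA-Seq. For 7 RNA-Seq and 5 Ribo-Seq results of the export and folding genes the effect of tunicamycin at 6 h differed from that at 2 h, tested as the 6 h against 2 h contrast in edgeR. In RNA-Seq the log2 differences were 2.32 for SEC24D, 2.03 for MIA2, 1.96 for LARP6, 1.85 for FKBP14, 1.66 for SEC23B, 1.47 for PREB and 1.19 for SEC31A. In Ribo-Seq they were 2.63 for SEC24D, 1.96 for SEC23B, 1.80 for FKBP14, 1.70 for LARP6 and 1.14 for PREB. With 1 library left out, SEC24D in Ribo-Seq stayed called in every case. SEC24D and SEC31A in RNA-Seq and FKBP14 and PREB in Ribo-Seq were lost whichever library was left out (adjusted p 0.0766 to 0.196, 0.0738 to 0.242, 0.0641 to 0.138 and 0.0598 to 0.209). In RNA-Seq without tunicamycin 2 h replicate 3, MIA2 (0.065), FKBP14 (0.0835), LARP6 (0.115), PREB (0.15) and SEC23B (0.201) were lost, and without its replicate 2 FKBP14 (0.0753), LARP6 (0.109), PREB (0.157) and SEC23B (0.196). Without tunicamycin 6 h replicate 3, LARP6 (0.0817), PREB (0.0929) and SEC23B (0.114) were lost, and without its replicate 1 PREB (0.0551) and SEC23B (0.0751). In Ribo-Seq SEC23B was lost without tunicamycin 2 h replicate 2 (0.0781), and LARP6 without that library (0.126) or 6 h replicates 2 (0.0668) or 3 (0.103).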

How the results depend on the processing

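The count of collagen genes called was 0 in all 9 comparisons, and stayed 0 with library size alone, with no filter on low counts, with the compared groups alone and without any 1 replicate (0 to 0). Other settings gave calls in RNA-Seq and, in 1 case, Ribo-Seq. DESeq2 called 1 gene at 6 h against untreated (6.04% of all genes) and 1 at 6 h against 2 h (3.85%). The replicate block called 1 and 2 there, and changed no other count. The replicate block with no untreated replicate 1 libraries called 1 at 2 h (2.61% of all genes), 7 at 6 h (17.1% of members against 25.2% of all genes), 16 at 6 h against 2 h (39% against 34.7%) and, in Ribo-Seq, 1 (COL27A1, lower, 6 h against 2 h, -0.73, 10.1% of all genes called). Replicates 2 and 3 alone, chosen after seeing the data, called 3, 9 and 17. In that fit COL8A1 at 6 h was -0.35, against 0.17 over all libraries. Cause was not tested for these differences. Genes tested fell to 41 in RNA-Seq without untreated replicate 1. Thapsigargin was also set against untreated replicates 2 and 3, chosen after seeing the data: COL18A1 was then at -1.45 and -2.07 and COL19A1 at 0.24 and 0.64 (log2, RNA-Seq, 2 h and 6 h). COL18A1 was also low in tunicamycin replicate 1 (86.3 and 65.4 CPM), so part of its difference is shared with those libraries. With a minimum of 100 counts 32 collagen genes were detected in the poorest RNA-Seq library and 12 in the poorest Ribo-Seq library. Ribo-Seq depth limits members of low level, where 3 counts reach 0.721 CPM, and 1 thapsigargin library per time allows no test. Levels per transcript length were not compared.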
